A study of Mus musculus with 6 samples.

Results

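This account covers 7 genes of antibody hypermutation and its repair, Ung, Apex1, Apex2, Msh6, Exo1, Polh and Rev1, in germinal centre B cells. They were the rows of the deposited table that carried these gene symbols, 7 of 55421 genes listed, and all 7 passed the filter of a mean of at least 10 normalized reads. The table held RNA-seq values of 6 libraries, 3 wildtype and 3 SFR KO, all from C57BL/6 mice that carry an AID-GFP reporter. The mice had received NP(18)OVA in alum, and GFP+ cells were sorted from the spleen on day 9. In SFR KO mice the segment between intron 1 (Cd244) and exon 8 (Slamf6) is deleted, which holds the SLAM family receptor genes Cd244, Ly9, Slamf7, Cd48, Slamf1, Cd84 and Slamf6. The labels give no age or sex, do not describe the reporter construct and do not say that each library was a separate mouse, so p-values measure only the spread between these samples.

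Hypermutation starts when AID, the enzyme whose reporter marked the sorted cells, deaminates cytosine in antibody genes to uracil. The uracil is handled by competing routes. In base excision repair the glycosylase UNG removes the uracil and leaves an abasic site, which the endonucleases APE1 (Apex1) and APE2 (Apex2) can nick. REV1 can insert a base opposite the abasic site during replication. In mismatch repair MSH6, as part of a heterodimer, binds the mismatch and the exonuclease EXO1 removes a stretch of the strand around it. DNA polymerase eta (Polh) refills that gap with errors, mostly at A and T bases. The same nicks and gaps in switch regions become the breaks of class switch recombination.

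The libraries were checked once for identity and depth. Recovered reads per library ran from 28269310 to 33053024. The summed level of the 7 deleted genes was 10456.7 to 20668.9 normalized reads in wildtype and 5.5 to 16.8 in SFR KO libraries. The B cell receptor component gene Cd79a stood at 32022.8 to 37238.7 normalized reads, the germinal centre factor Bcl6 at 13496.4 to 16046.3 and Fas at 2566.8 to 2935.6, so markers of the labelled cell type were present in every library. Of the 7 listed germinal centre markers limma called 0. Bcl6 and Fas had log2 differences below 0 and the other 5 above 0. Groups did not overlap for 2, Bcl6 (lower in SFR KO) and Gcsam (higher, DESeq2 adjusted p = 0.00934), where 21.7% of all tested genes had such groups. All 7 listed T cell markers had reads, with a summed level of 393.1 to 820.4 normalized reads in wildtype and 706.2 to 845.2 in SFR KO libraries. Of these 7, 6 had a log2 difference above 0, with a median of 0.64, and limma called 0. An unadjusted limma p under 0.05 was reached by 3, all higher in SFR KO (16.1% of all tested genes reached it in either direction). Myeloid markers summed to 1037 to 5036.5 in wildtype and 815.6 to 2413.1 in SFR KO libraries. Red cell markers summed in the same order to 1417.9 to 7686.2 and 1538.2 to 4183.8. The 5 plasma cell markers summed to 29585.5 to 30239.2 and 32630.4 to 33223.1, and without Jchain, the joining chain of secreted antibody, to 7064.1 to 7394.4 and 6593 to 8054.5, so the separation of these sums rested on Jchain. Resting B cell markers summed to 14397.7 to 18150.2 in wildtype, and to 17465.4, 9913.4 and 10003.5 in SFR KO 1, 2 and 3. Of these 6 markers, 5 had a log2 difference below 0 and Cd38 went the other way. It had 1004.2 to 1357 normalized reads in wildtype and 1583.5 to 1875 in SFR KO libraries (limma adjusted p = 0.0659, DESeq2 0.000177). The part of these other cells in the values below was not tested.

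RefSeq promoter windows (GRCm38.p6, 250 bases before to 50 after the start site) were found for Ung, Apex1, Msh6, Polh and Rev1, and not for Apex2 and Exo1. The windows of Msh6, Polh and Apex1 are shown because these genes had the highest levels per length of the 7. Capitals mark 3 motifs, searched on both strands: TTTCCCGC, TTTGGCGC, TTTGCCGC or TTTCGCGC (E2F), CACGTG (E-box) and GCATGCGC (the core of the NRF1 motif).
Msh6, plus strand, chr17:87974800-87975099: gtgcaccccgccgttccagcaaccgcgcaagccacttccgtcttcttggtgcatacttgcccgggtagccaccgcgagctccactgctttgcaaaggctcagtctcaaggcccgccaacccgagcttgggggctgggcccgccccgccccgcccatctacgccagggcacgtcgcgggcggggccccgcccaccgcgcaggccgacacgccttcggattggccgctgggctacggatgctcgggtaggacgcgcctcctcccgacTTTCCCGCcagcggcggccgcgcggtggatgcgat
Polh, minus strand, chr17:46202592-46202891: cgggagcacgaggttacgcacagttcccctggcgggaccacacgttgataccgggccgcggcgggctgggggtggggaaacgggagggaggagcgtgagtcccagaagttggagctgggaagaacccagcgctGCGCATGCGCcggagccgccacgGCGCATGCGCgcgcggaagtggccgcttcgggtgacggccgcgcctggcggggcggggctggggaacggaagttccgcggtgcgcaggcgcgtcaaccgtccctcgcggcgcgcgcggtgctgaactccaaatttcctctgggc
Apex1, plus strand, chr14:50924699-50924998: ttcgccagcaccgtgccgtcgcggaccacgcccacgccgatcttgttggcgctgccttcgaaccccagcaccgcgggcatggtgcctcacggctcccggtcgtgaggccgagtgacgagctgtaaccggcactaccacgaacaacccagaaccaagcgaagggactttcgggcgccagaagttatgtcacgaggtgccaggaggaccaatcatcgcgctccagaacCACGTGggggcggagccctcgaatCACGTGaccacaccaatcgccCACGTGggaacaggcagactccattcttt
Msh6 held 1 E2F match, starting 16 bases into the transcript, where 2.26% of 32851 promoter windows held any. Polh held the NRF1 core at 2 places, beginning 117 and 94 bases before the start site and each read on both strands, where 2.71% of windows held any. Apex1 held 3 E-boxes and Rev1 held 1, where 7.15% of windows held any. The Ung window held none of the 3 motifs. E2F and NRF1 matches were each in 1 of the 5 windows. GGGCGG, the SP1 motif, was in all 5 windows and in 35.7% of all windows. Other motifs were searched too and are not marked. The CCAAT box was in 2 of the 5 windows and in 37.4% of all windows. The ETS, TATA box and CRE motifs were in 0 of the 5, and in 3.89%, 13.6% and 1.79% of all windows. The 5 windows were 63.3% to 83% G and C, against a median of 52.7%. These matches describe letters in the window and say nothing of binding.

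Scaled to the length of the merged exons, the 7 genes spanned a wide range of levels. Msh6 was highest, with a wildtype mean of 2342 ± 37.9 and an SFR KO mean of 2220 ± 231 normalized reads per kilobase (SD, n = 3 each). Polh followed at 1415 ± 64.8 and 1554 ± 100.01, and Apex1 at 1217 ± 46.7 and 1199 ± 47.3 normalized reads per kilobase. A gap separated these 3 from the others: the lowest Apex1 value, 1166.4, stood above the highest Rev1 value, 413. Rev1 was at 369 ± 32.04 and 387 ± 39.7 normalized reads per kilobase, and Ung at 335 ± 24.8 and 322 ± 12.3. Exo1 was at 196 ± 3.71 and 180 ± 10.4, and Apex2 was lowest at 86.2 ± 6.70 and 90.9 ± 1.86 normalized reads per kilobase. The ranges over 6 libraries overlapped only for the neighbours Rev1 and Ung. That order rests on the length used. With the longest transcript as the length, Polh (2728 normalized reads per kilobase) lay above Msh6 (2332) in all 6 libraries, and Ung (580) lay above Rev1 (547) in 3 of 6. Apex1 stood above Apex2 by either length.

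**Figure D1:**
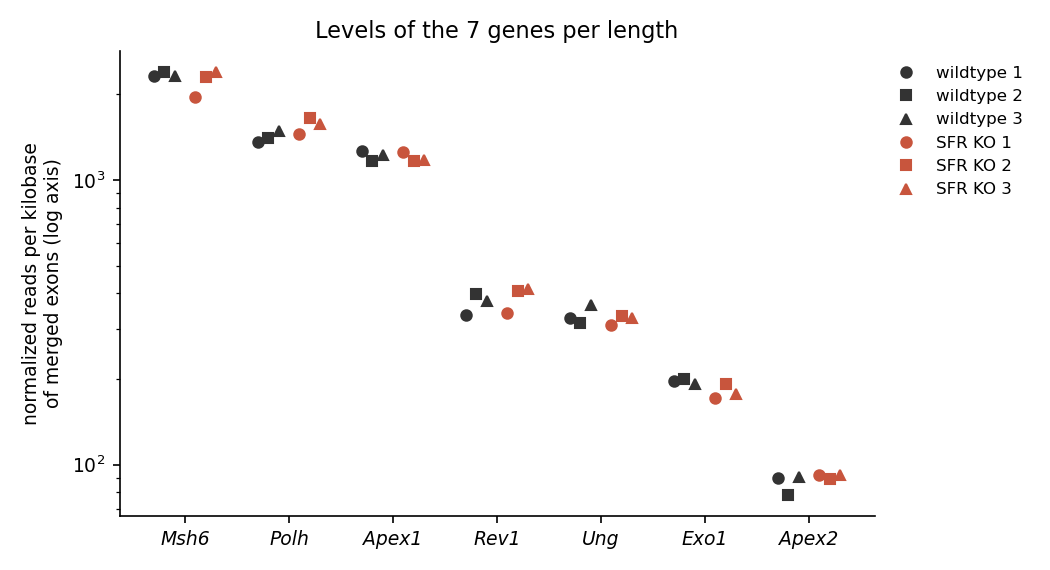
Normalized reads per kilobase of merged exons (log axis) of each gene, 1 point per library, wildtype in black and SFR KO in red. Msh6, Polh and Apex1 lie above 1000 in every library, and Rev1 and Ung overlap.

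The study set SFR KO against wildtype germinal centre B cells, and this comparison was read for the 7 genes. None of the 7 passed the limma threshold (Benjamini-Hochberg adjusted p under 0.05 over 13562 tested genes), where 0.465% of all tested genes did. By the same fit 0 of 7 had an unadjusted p under 0.05, against 16.1% of tested genes, and edgeR and DESeq2 on the recovered reads called 0 of 7 (0.221% and 4.84% of all genes with a value). The fitted log2 differences, SFR KO minus wildtype, ran from -0.12 for Exo1 to 0.14 for Polh, with a median of -0.02 against 0.00 over all tested genes. Of the 7, 3 were above 0 and 4 below, where 49.3% of all tested genes were above 0. The 95% limma intervals together reached from 0.833 to 1.21 times the wildtype level, so that folds beyond these lay outside the interval of every member. The limma threshold would often miss changes of that size or less, and some larger ones too. In simulated libraries of this comparison, limma called 4% of genes changed by a log2 of 0.25, 50% at 0.5 and 86% at 1. The changed genes were drawn from all genes with a mean above 50. The shares were not worked out for genes at the levels of the members.

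Of the base excision genes, Ung, which encodes the uracil DNA glycosylase (chromosome 5, 114130386 to 114139323, GRCm38), was at 1792.2, 1719.1 and 1981.6 normalized reads in wildtype 1, 2 and 3, and at 1686.9, 1815.2 and 1785.1 in SFR KO 1, 2 and 3. The highest value was wildtype 3 and the lowest SFR KO 1, and the groups overlapped. Its log2 difference was -0.05 ± 0.07 (SE), with an interval of -0.21 to 0.10 (limma adjusted p = 0.759). Without wildtype 3 it was 0.01.

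Apex1, the main abasic site endonuclease (chromosome 14, 50924968 to 50927139), had wildtype values of 1791.2, 1659.6 and 1740.9 normalized reads and SFR KO values of 1781.5, 1658.6 and 1672.7. The lowest and highest of the 6 values differed by 1.08 times, the narrowest range among the 7, and each group spanned nearly the same values. The log2 difference was -0.02 ± 0.06 (limma adjusted p = 0.899). In GENCODE, 61.7% of the exon bases of Apex1 also lie in exons of Pip4p1 on the opposite strand. No source used here states whether counting used strand, which leaves the level of Apex1 uncertain.

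Apex2, its relative on chromosome X (150519519 to 150589868), was at 786, 686.2 and 789.2 normalized reads in the wildtype group and at 803.1, 776.2 and 805.4 in the SFR KO group. Wildtype 2 was the low library, and SFR KO 2 lay within the wildtype range. The fit gave a log2 difference of 0.08 ± 0.08 (limma adjusted p = 0.68) and without wildtype 2 it was 0.01. The gene model of Apex2 spans Alas2, a red cell gene on the opposite strand, with which it shares 3.56% of its exon bases. Alas2 had wildtype values of 405.1, 54.4 and 68.1 normalized reads and SFR KO values of 152.7, 46 and 120.8. Within each group both genes were lowest in library 2. The part of Alas2 in the Apex2 values was not tested.

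Of the mismatch repair genes, Msh6 (chromosome 17, 87975062 to 87990892) was at 10068.3, 10366.9 and 10097.1 normalized reads in the wildtype group and at 8512.4, 10013 and 10416.5 in the SFR KO group. The 3 wildtype values lay close together, whereas SFR KO 1 was 16.7% below the mean of SFR KO 2 and 3, and SFR KO 3 was the highest of all. Between genotypes it differed by a log2 of -0.08 ± 0.07 (limma adjusted p = 0.629), and 0.01 without SFR KO 1.

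Exo1, the exonuclease (chromosome 1, 175880581 to 175913489), had wildtype values of 1660.2, 1679.1 and 1618 normalized reads and SFR KO values of 1444.5, 1614.8 and 1493.8. It was the only member whose groups did not overlap. The gap was narrow, 1618 against 1614.8, and 21.7% of all tested genes had groups that did not overlap, 11.9% with SFR KO lower. The log2 difference was -0.12 ± 0.06, with an interval of -0.26 to 0.01 (limma adjusted p = 0.37), and it ran from -0.17 to -0.09 as single libraries were left out. Exo1 starts 3.93 Mb beyond the end of the segment from Cd244a to Slamf6. Of the 34 genes tested between that end and the end of Exo1, Exo1 included, limma called 0, 4 had groups that did not overlap and 17 lay below 0, with a median log2 difference of 0.01.

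SFR KO 1 was the lowest of the 6 libraries for Msh6, Exo1 and Ung. It was also lowest in the summed level of S phase markers. The 20 markers summed to 166204.1 normalized reads in SFR KO 1, against 173311.7 to 184634.3 in the other libraries, and 13 of the 20 were lowest there. Without Mcm6, the highest of the 20, the other 19 summed to 143516.4 there, against 149470 to 159498.9. The 18 markers of G2 and mitosis also summed lowest in SFR KO 1, at 185366.2 against 204534.8 to 226536.6, but that place rested on Mki67. Mki67, the proliferation marker, had 42712 normalized reads in SFR KO 1 and 62043.9 to 71884.4 elsewhere, but the other 17 markers summed to 142654.2, against 142490.8 to 162147.2 in the other libraries, and wildtype 1 was lowest. Of those 17, 5 were lowest in SFR KO 1 and 4 lay there above every wildtype value. In bulk RNA, fewer cycling cells and less of these transcripts per cell cannot be told apart, and the part of the cell cycle in the member values was not tested. By genotype, limma called 0 of 20 S phase and 0 of 18 G2 and mitosis genes. The share of all tested genes that were lowest in SFR KO 1 was not computed, so these counts have no background. Resting B cell markers set SFR KO 1 apart from the rest of its group too. They summed to 17465.4 normalized reads there, against 9913.4 in SFR KO 2 and 10003.5 in SFR KO 3. Wildtype libraries had 14397.7 to 18150.2. The part of resting B cells in the member values was not tested. SFR KO 1 also stood apart over all genes compared. Its chi-square per gene was 16.9 against SFR KO 2 and 24.5 against SFR KO 3. That between SFR KO 2 and 3 was 6.11, and pairs of wildtype libraries had 12.5 to 13.5.

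Of the error-prone polymerases, Polh (chromosome 17, 46171355 to 46202645) was at 8071.7, 8346.3 and 8832.6 normalized reads in the wildtype group and at 8614.9, 9795.2 and 9337.6 in the SFR KO group. SFR KO 2 and 3 were above all wildtype values, while SFR KO 1 lay below wildtype 3. Polh had the smallest p of the 7, at a log2 difference of 0.14 ± 0.06 with an interval of -0.0001 to 0.27 (limma adjusted p = 0.31). Without SFR KO 1 the difference was 0.19 (adjusted p = 0.092), and without SFR KO 2 it was 0.09 (0.647).

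Rev1 (chromosome 1, 38052786 to 38129801) had wildtype values of 2064.4, 2453.5 and 2318.9 normalized reads and SFR KO values of 2103.7, 2503.8 and 2547.5. Its spread within groups was the widest of the 7, a log2 SD of 0.14 against 0.06 for Apex1 and a median of 0.09 over genes with a mean of at least 100. The low libraries were wildtype 1 and SFR KO 1, the same pair in which Apex1 was highest. That pair also had the most red cell and myeloid RNA. Red cell markers summed to 7686.2 and 4183.8 normalized reads there and to at most 2925.8 elsewhere. Myeloid markers summed to 5036.5 and 2413.1 there and to at most 1352.9 elsewhere. The part of these cells in the Rev1 and Apex1 values was not tested. For Rev1, SFR KO minus wildtype came to a log2 difference of 0.06 ± 0.09 (limma adjusted p = 0.779). It was -0.01 without wildtype 1 and 0.15 without SFR KO 1. Exons of Rev1 share 26.6% of their bases with Eif5b on the opposite strand, so its level carries the same uncertainty as that of Apex1.

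**Figure D2:**
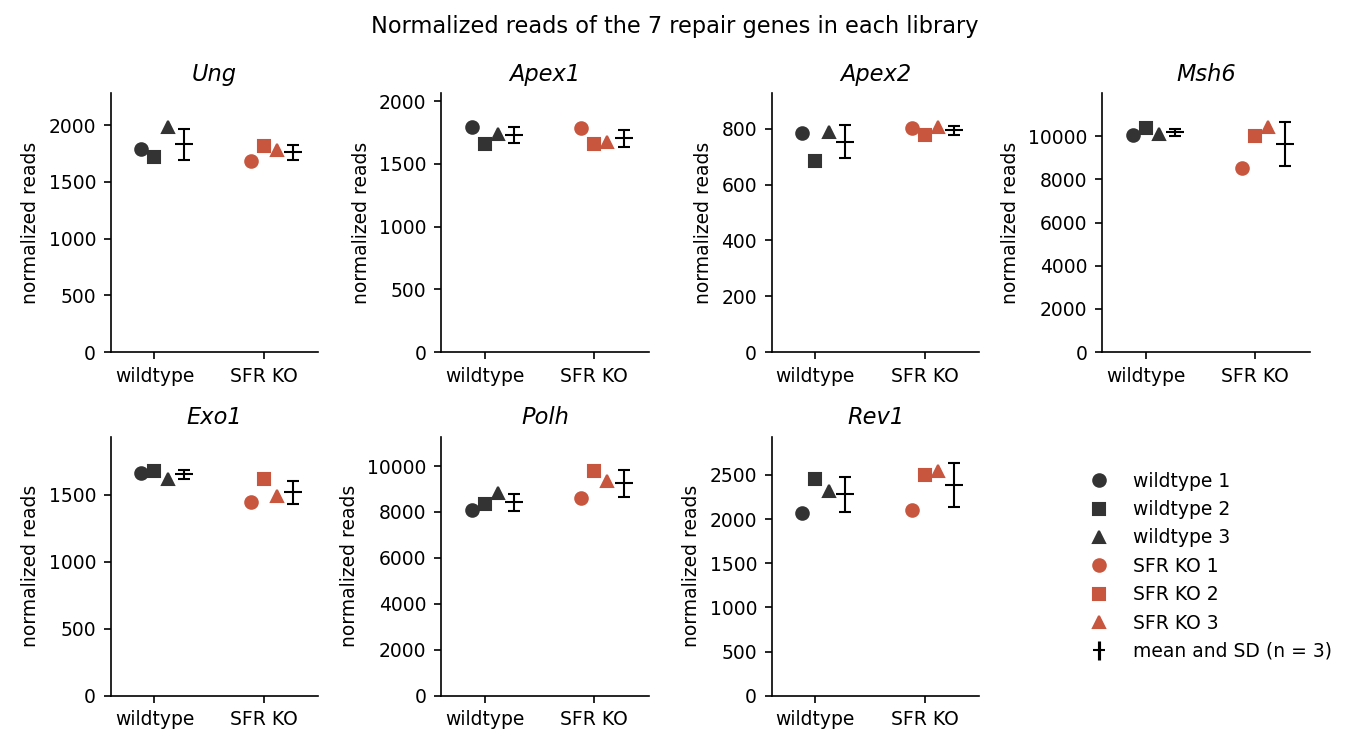
Normalized reads (axis from 0) of each gene in wildtype (black) and SFR KO (red) libraries, with the mean and SD of each group (n = 3) beside the points. Groups overlap for every gene except Exo1, where 1614.8 in SFR KO 2 lies just under 1618 in wildtype 3.

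**Figure D3:**
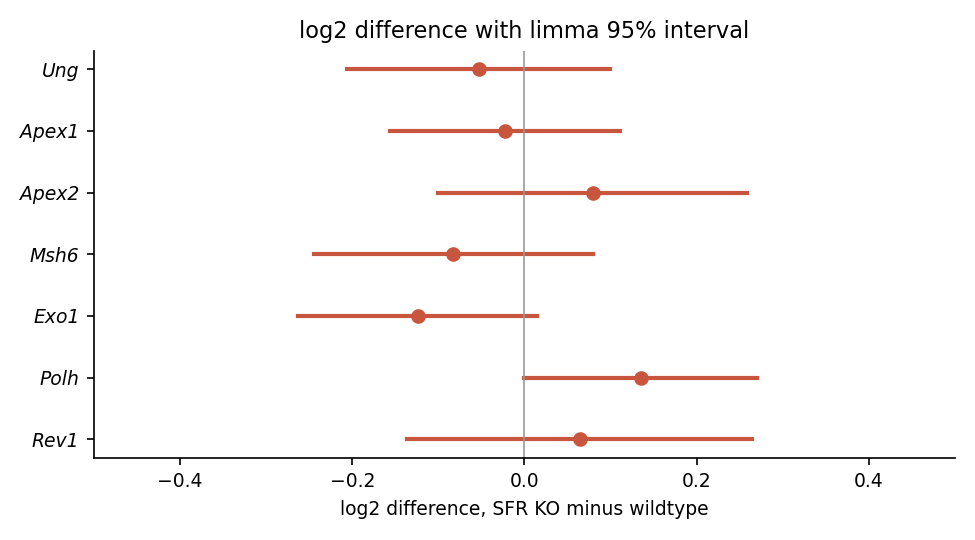
log2 difference, SFR KO minus wildtype, of each gene (point) with its 95% limma interval (line). All 7 intervals include 0, that of Polh by the smallest margin.

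The authors' deposited table gave the same order of size. Its log2 fold change of KO over wildtype was 0.14 for Polh, with an adjusted p of 0.264, and -0.12 for Exo1, with an adjusted p of 0.477. In the authors' deposited table the adjusted p of the other 5 ran from 0.681 for Msh6 to 0.942 for Apex1, and 497 of 10360 genes with a value were under 0.05.

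The genes whose levels followed each member most closely over the 6 libraries were taken by Pearson's r of log2 values among 9307 genes, where 44 to 246 genes reached an r above 0.9 with a member, so these are descriptions of 6 points. For Rev1 they were Recql5 and Blm (r = 0.989 each), both of which encode RecQ helicases of DNA repair. For Msh6 they were Dennd4c (0.997) and Evc2 (0.991), and for Exo1 Inpp5b (0.993) and Naip2 (0.987). For Polh they were Plaat3 (0.992) and Ccdc191 (0.991), for Ung Taf6l (0.992) and Lin37 (0.983). For Apex1 they were Rusc1 (0.997) and Plekhb2 (0.989), for Apex2 Zfp954 (0.986) and Zfp229 (0.984). Blm, for example, was at 1329.5, 1520.1 and 1424 normalized reads in the wildtype group and at 1351.9, 1562.3 and 1566.9 in the SFR KO group, with its low values in wildtype 1 and SFR KO 1 like Rev1.

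The other genes of the pathways were read from 6 lists. Of 104 listed genes 102 could be tested, and limma called none and edgeR none. An unadjusted p under 0.05 was reached by 14 (13.7%), below the 16.1% of all tested genes. Groups did not overlap for 24 (23.5%), near the 21.7% of all tested genes. The differences ran from -0.32 to 0.27 with a median of 0.02. By list, the share with an unadjusted p under 0.05 ran from 0% for nucleotide pools to 35.3% for AID cofactors. DESeq2 called 4 of the 101 with a value (3.96%, against 4.84% of all genes with one), Neil1, Apobec3, Dnaja1 and Hsp90ab1. Without SFR KO 1 limma called 3 of 102 (2.94%, against 3.54% of all tested genes), Neil1, Lig4 and Apobec3. With any other single library left out limma called 0 of 102.

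In base excision repair, limma called 0 of 21 tested genes, where it called 0.465% of all tested genes, and the median log2 difference was 0.01. An unadjusted limma p under 0.05 was reached by 3 (14.3%, against 16.1% of all tested genes). Groups did not overlap for 6 (28.6%, against 21.7%). Neil1, a glycosylase for oxidized bases, had wildtype values of 11557.6, 12894.3 and 13126 normalized reads and SFR KO values of 14279.7, 15155.3 and 15027.2. All 3 SFR KO values were above all wildtype values. Limma put the log2 difference at 0.24 ± 0.06 (limma adjusted p = 0.104; DESeq2 0.00419; limma without SFR KO 1 0.0398), and 0.30 with the GC trend of each library removed. Without SFR KO 2 the Neil1 difference was 0.23 (limma adjusted p = 0.338). The related Neil3 stood at 0.27 ± 0.08 (limma adjusted p = 0.182).

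In mismatch repair with its synthesis step, 0 of 19 genes were called and the median was 0.01. Rpa3, a subunit of the single-strand binding protein RPA, had a log2 difference of 0.16 ± 0.06 (limma adjusted p = 0.25), and Hmgb1, a chromatin protein, of 0.10 ± 0.05 (0.396). With the GC trend removed the Rpa3 difference was -0.10 and that of Hmgb1 0.00, so that the direction of Rpa3 depends on that correction. Without wildtype 1 the Hmgb1 difference was 0.06.

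In translesion synthesis, 0 of 16 genes were called and the median was 0.04. Rev3l, the catalytic subunit of polymerase zeta, which extends from bases placed by other polymerases, was at 4958.4, 4953.2 and 4453.9 normalized reads in the wildtype group and at 3585.7, 4387.9 and 4214.6 in the SFR KO group. Every SFR KO value was below every wildtype value, with a log2 difference of -0.24 ± 0.08 (limma adjusted p = 0.199), and -0.15 without SFR KO 1. Polq, the polymerase of a microhomology end-joining route, stood at -0.17 ± 0.07 (0.282), and at -0.11 without SFR KO 1.

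In end joining, 0 of 23 genes were called and the median was 0.03. Lig4, the ligase of non-homologous end joining, had wildtype values of 1751.3, 1578.6 and 1823.2 normalized reads and SFR KO values of 1764.8, 2276.1 and 2161.6. SFR KO 1 lay among the wildtype values. The log2 difference was 0.26 ± 0.10 (limma adjusted p = 0.236), and 0.37 without SFR KO 1 (0.0269). Without SFR KO 2 it was 0.19 (limma adjusted p = 0.539). Paxip1, an adaptor in the response to breaks, stood at -0.16 ± 0.08 (0.362), and at -0.07 without SFR KO 1.

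Among AID cofactors and APOBEC relatives, 0 of 17 tested genes were called and the median was 0.00. An unadjusted limma p under 0.05 was reached by 6 of the 17 (35.3%, against 16.1% of all tested genes), and groups did not overlap for 8 (47.1%, against 21.7%). Of the 6, 2 were higher in SFR KO and 4 lower. The list was chosen with earlier results of these data known, so these shares cannot be read as a result about AID cofactors. Apobec3, a cytidine deaminase that restricts retroviruses, was at 17450.6, 18378.8 and 17607.3 normalized reads in the wildtype group and at 19371, 20686.2 and 20141.8 in the SFR KO group. The groups did not overlap. The fitted log2 difference came to 0.17 ± 0.05 (limma adjusted p = 0.143, DESeq2 0.0212, limma without SFR KO 1 0.0491). Without SFR KO 2 it was 0.15 (limma adjusted p = 0.413). The chaperone genes Dnaja1 and Hsp90ab1, whose products are known to stabilise AID, stood at -0.32 ± 0.09 (limma adjusted p = 0.139; DESeq2 0.01) and -0.19 ± 0.07 (limma 0.228; DESeq2 0.0468). Hsp90ab1 was named after its value was seen. Dnaja1 had wildtype values of 6444.9, 5061.9 and 6020.1 normalized reads and SFR KO values of 4592.7, 5022.9 and 4400, so that the groups were separated by a narrow gap between wildtype 2 and SFR KO 2.

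For uracil and nucleotide pools, 0 of 10 genes were called, although all 10 fitted differences were above 0, from 0.00 to 0.16 with a median of 0.05. With the GC trend removed 6 were above 0 and 4 below. Dtymk and Tk1, kinases of thymidine nucleotide synthesis, stood at 0.11 ± 0.06 (limma adjusted p = 0.391) and 0.12 ± 0.06 (0.4). The plot of the lists sets all 102 genes beside the spread of all tested genes.

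**Figure D4:**
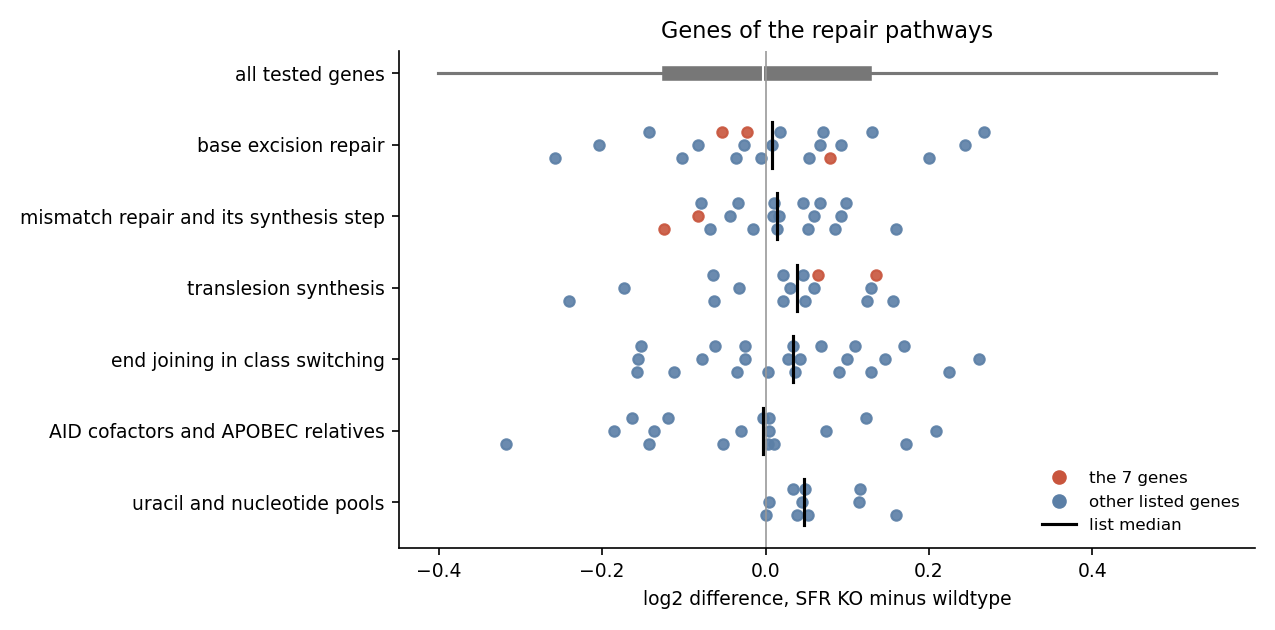
log2 difference, SFR KO minus wildtype, of each gene in the 6 lists (points, the 7 genes in red, others in blue; black bars are list medians; height within a row carries no value). The grey bars give the middle 50% and 90% of all 13562 tested genes, and no listed gene passed the limma threshold.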

How the data were processed

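RNA-seq of sorted germinal centre B cells was deposited as 1 table of 6 libraries, grouped by the genotype label and numbered in accession order. The submitters' processing notes name STAR 2.5 with featureCounts 1.5, DESeq2 1.14.1 and build GRCm38. Annotation release, strand setting and filters are not stated there. For each gene the authors deposited a signal, the read count divided by a factor for library size. Per the file headers, the other columns are a log2 fold change, its standard error, a score (the test statistic), a p-value and an adjusted p-value. Every value was a whole multiple of the library's smallest (100% within a relative tolerance of 1e-06), so whole reads were recovered. Libraries of 1 group differed by more than sampling noise (chi-square per gene of 6.11 or more).

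The main test was limma 3.58.1 (R 4.3.3; eBayes with trend, two-sided) on log2(normalized count + 1), which understates changes of low genes, over 13562 genes with a mean of at least 10. edgeR 4.0.16 and DESeq2 1.42.0 ran on the recovered reads. Other alternatives were pseudocounts, filters, scalings, sample weights, removal of GC or length trends (splines with 4 degrees of freedom) and each library left out. Lengths, positions and GC content came from GENCODE M21 (GRCm38; 99.5% of genes matched), promoters from RefSeq. The fit was tested on simulated counts of this comparison over 13562 genes.

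The members and lists were chosen with earlier results of these data known. Named were the 7 members, the 2 other genes of each list with the smallest p and a mean of at least 50 (none was called), the 4 DESeq2 calls and the 2 genes most like each member. Some further genes of these pathways are not reported here.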

Additional observations from a re-analysis of the deposited data

How the results depend on the processing

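All 18 alternatives to the main fit called 0 of the 7 members; their adjusted p-values ran from 0.0768 (Polh, sample weights) to 0.997 (Apex1, upper quartile scaling). Exo1, Polh and Apex2 kept their direction in all 18 alternatives, with log2 differences of -0.17 to -0.08, 0.09 to 0.19 and 0.01 to 0.11. Differences close to 0 changed sign in some. Apex1 was at 0.0013 with upper quartile scaling, 0.0017 with the GC trend removed and 0.0031 without wildtype 1. Rev1 was at -0.0054 without wildtype 1, Ung at 0.0052 without wildtype 3 and Msh6 at 0.0051 without SFR KO 1. With the GC trend removed, Rpa3 was at -0.103 and Hmgb1 at -0.00055. The cause was not tested. With each library left out, Ung ran from -0.0973 to 0.0052, Apex1 from -0.0544 to 0.0031, Msh6 from -0.141 to 0.0051 and Rev1 from -0.0054 to 0.152.

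Of the 102 pathway genes limma called 0 and DESeq2 called 4; with sample weights limma called 3, Neil1, Lig4 and Apobec3, and with each library left out 0 to 3. Over all genes the count of 63 became 129 with no filter, 98 with a minimum mean of 50, 30 with edgeR, 491 with DESeq2, 630 with sample weights, 20 with the GC trend removed and 112 with the length trend removed. With each library left out it ran from 11 to 480, the highest without SFR KO 1. No paired analysis was possible because the labels give no replicate numbers. The members had 669 (Apex2) to 11122 (Msh6) reads per library, where counting alone gives a log2 SD of 0.0558 and 0.0137. Within groups the log2 SD was 0.0837 for Apex2 and 0.11 for Msh6. Over the 7 members it ran from 0.056 for Apex1 to 0.14 for Rev1.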
